A study of Mus musculus with 4 samples.

Results

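Granzymes and perforin were followed in mouse T cells cultured with Tc1 cytokines or with Tc9 cytokines. The 10 genes were taken by name: the granzyme genes Gzma, Gzmb, Gzmc, Gzmd, Gzme, Gzmf, Gzmg, Gzmk and Gzmm, and Prf1, which encodes perforin. Of these, 8 had a probe set that the platform annotation named for them, each with 1 probe set, out of 19505 named genes on the array. The expression of Gzmd and Gzme is not analysed here, and they enter only the comparison of upstream sequences. Each condition had 2 Affymetrix arrays hybridised with biotin-labelled total RNA, titled Tc1-1, Tc1-2, Tc9-1 and Tc9-2. The stated purpose was to compare the expression of genes between Tc1 and Tc9 cells. The strain, genotype, age and number of animals, the cytokines, the culture time and any cell sort were not stated in the labels. The labels do not describe the 2 replicates of a condition as separate cultures or animals, so p-values measure only the spread between these arrays, which may be technical.

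Cytotoxic T cells kill by emptying secretory granules onto a target cell. Perforin forms pores in the target membrane, and granzymes, which are serine proteases, pass through to cleave proteins inside. Granzyme B cleaves after aspartate and can start the caspase cascade, granzyme A and granzyme K are tryptase-like enzymes, and granzyme M cleaves after methionine and similar residues. In the mouse, the Gzmb locus was enlarged by duplication to include Gzmc, Gzmd, Gzme, Gzmf, Gzmg and Gzmn, beside mast cell protease genes. In the field, Tc1 stands for killer CD8 T cells with interferon gamma as their hallmark cytokine, and Tc9 for CD8 T cells that secrete interleukin 9.

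The arrays numbered 1 had median deposited intensities of 37.1 (Tc1) and 37.9 (Tc9), and those numbered 2 had 57.3 and 57.1. Values are therefore given as quantile normalized intensities, and differences are Tc9 minus Tc1 on the log2(intensity + 16) scale, on which the change of a dim gene is understated. Background was set on each array at the 95th percentile of its negative control probe sets, which corresponded to normalized intensities of 153 to 182. All 8 measured markers of T cell identity, among them Cd3e, Cd8a and Cd8b1, lay above background on every array, with summed intensities of 21698 and 22677 in Tc1 and 22375 and 22922 in Tc9. Cd8a measured 5305 and 4603 in Tc1 and 5272 and 4178 in Tc9. The 29 measured markers of CD4 T cells, NK cells, mast cells and basophils, and neutrophils and other myeloid cells lay below background on every array, Cd4 included, with summed intensities of 1088 and 1062 in Tc1 and 1132 and 1052 in Tc9. Of 5 measured B cell markers, only Cd79b, named after its values were seen, exceeded background, on 1 Tc9 array; their sums were 159 and 274 in Tc1 and 191 and 283 in Tc9. Il9, the hallmark cytokine gene of Tc9 cells, was below background on all 4 arrays, at 23.4 and 26.5 in Tc1 and 103 and 81.9 in Tc9 (log2 difference 1.40, limma adjusted p = 0.0679). The limma adjusted p of Il9 with the replicate number as a block was 5.07e-15, which 4 arrays cannot bear out. P-values from the block are not relied on here. With the values as deposited, the adjusted p of Il9 was 0.762. Leaving out 1 array gave 0.122 without Tc1-1, 0.0519 without Tc1-2, 0.0218 without Tc9-1 and 0.00186 without Tc9-2. In such fits the spread comes only from the group that keeps 2 arrays, and the lone array is assumed to vary like it, so a pass there does not show that a call holds.

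Gzmb and Prf1 were lower in Tc9 than in Tc1, and no measured granzyme other than Gzmb passed the test. By limma, with adjustment over all genes and a threshold of 0.05, 2 of the 8 measured members fell and 0 rose, where 0.179% of all genes fell and 0.385% rose. At an unadjusted p under 0.05 the counts for the members were again 2 and 0, against 2.34% and 2.94% of all genes. The other 6, Gzma, Gzmc, Gzmf, Gzmg, Gzmk and Gzmm, lay below background on all 4 arrays, so a change in them could not be measured reliably. Both Tc9 arrays lay below both Tc1 arrays for 6 of the 8 members and above them for 1, against 15.1% and 14% of all genes. The median log2 difference of the 8 was -0.26 (-0.27 in the arrays numbered 1 and -0.25 in those numbered 2), beside -0.0027 over all genes. It was -0.15 for the 6 members other than Gzmb and Prf1. Both medians rest on genes below background. These arrays measure bulk RNA, in which fewer cells with a transcript and less transcript per cell cannot be told apart.

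**Figure D1:**
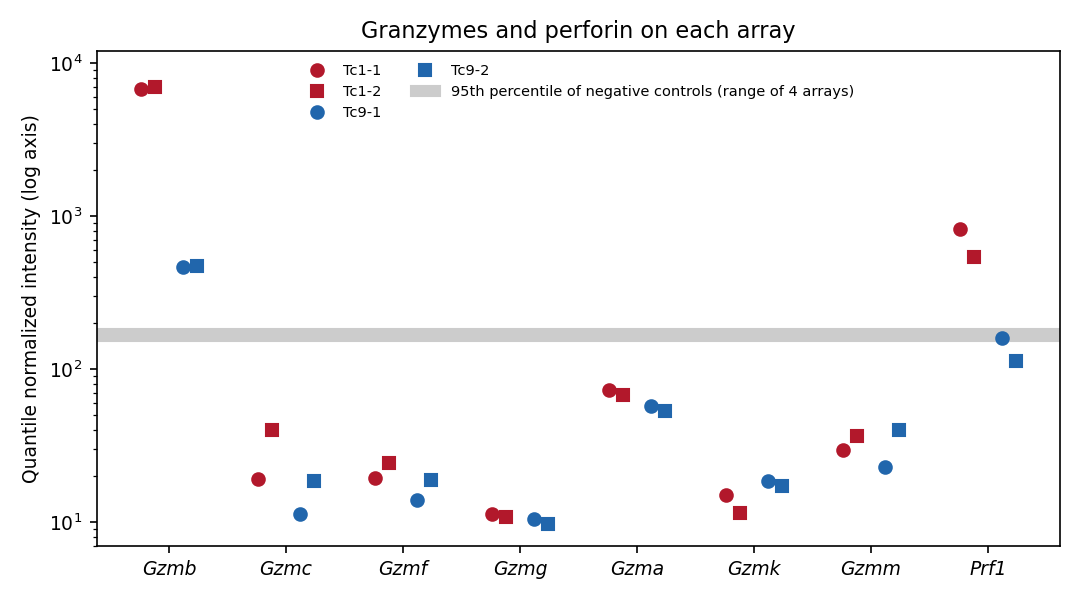
Quantile normalized intensity on a log axis of each measured granzyme gene and Prf1 on the 4 arrays (red, Tc1; blue, Tc9; circles, arrays numbered 1; squares, arrays numbered 2); the grey band spans 153 to 182, the background of the 4 arrays. Gzmb stands near 6872 in Tc1 and 469 in Tc9, Prf1 drops from above the background to below that of its own array, and the other 6 genes stay under the band.

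Gzmb, the gene of the granule protease that cleaves after aspartate, measured 6787 and 6956 in Tc1 and 466 and 471 in Tc9. The groups were far apart and the replicates close together: the higher replicate exceeded the lower by a ratio of 1.02 in Tc1 and 1.01 in Tc9. Mean intensity in Tc9 (469 ± 3.71, SD, n = 2) was 6.82% of that in Tc1 (6872 ± 119). The log2 difference was -3.83 ± 0.12 (SE, limma adjusted p = 0.000107), a 14.2-fold fall on the log2(intensity + 16) scale. It was -3.82 in the arrays numbered 1 and -3.84 in those numbered 2. Of the 19505 genes tested, Gzmb had the most negative difference and the smallest p. It was also the only measured member above background on all 4 arrays, so that transcript signal was still measured in Tc9.

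The 250 bases upstream of the RefSeq start of Gzmb (GRCm38.p6, chr14:56262335-56262584, minus strand) are shown because this gene fell most; capitals mark matches, on either strand, to the RUNX motif TGTGGT and the AP-1 motif TGANTCA.
Gzmb: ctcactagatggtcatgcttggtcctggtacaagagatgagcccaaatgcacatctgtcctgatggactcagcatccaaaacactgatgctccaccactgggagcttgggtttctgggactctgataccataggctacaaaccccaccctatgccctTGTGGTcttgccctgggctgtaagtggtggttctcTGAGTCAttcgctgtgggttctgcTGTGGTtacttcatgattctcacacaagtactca
RUNX and AP-1 proteins are transcription factors of activated T cells. The RUNX letters occurred at 2 places, beginning 93 and 34 bases before the start, and the AP-1 letters at 1 place, beginning 58 bases before it. In the same 250-base window, 14% of 32851 RefSeq promoters held the RUNX letters and 6.75% the AP-1 letters. A match is a description of sequence, and occupancy of these sites was not measured.

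Prf1, which encodes the pore-forming protein of the granule, measured 823 and 539 in Tc1 and 159 and 113 in Tc9. The groups did not overlap, but replicates were further apart than for Gzmb, by a ratio of 1.53 in Tc1 and 1.40 in Tc9, and in both groups the array numbered 1 was the higher. On the scale as deposited, where the arrays numbered 2 are brighter in general, the order turned: 597 and 697 in Tc1, and 116 and 145 in Tc9. The log2 difference was -2.18 ± 0.26 (SE, limma adjusted p = 0.0170), from 681 ± 200.3 (SD, n = 2) to 136 ± 32.1, with -2.26 in the arrays numbered 1 and -2.10 in those numbered 2. Because Prf1 was below background on both Tc9 arrays, its Tc9 level has only an upper bound. Against that bound, taken on each array as the lowest normalized intensity above background, it was at least 3.88-fold lower in Tc9; the fitted difference corresponds to 4.54-fold on the log2(intensity + 16) scale. Without normalization the call was lost (limma adjusted p = 0.886), as it was without the intensity trend in the variance model (0.0743); that of Gzmb held under both (1.94e-05 and 0.00877).

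The same stretch upstream of Prf1 (GRCm38.p6, chr10:61297586-61297835, plus strand) is shown as that of the other gene that fell; capitals mark the RUNX letters, the ETS motif AGGAAG and the cyclic AMP response element (CRE) half-site TGACGT.
Prf1: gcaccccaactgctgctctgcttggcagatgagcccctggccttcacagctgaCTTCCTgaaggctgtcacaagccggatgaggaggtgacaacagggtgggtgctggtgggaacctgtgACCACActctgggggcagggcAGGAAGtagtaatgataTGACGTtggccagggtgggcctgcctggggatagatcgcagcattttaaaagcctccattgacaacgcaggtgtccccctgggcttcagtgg
Prf1 held the RUNX letters at 1 place, the ETS letters at 2 and the CRE half-site at 1. The ETS letters occurred in 29.5% of all promoter windows and the CRE half-site in 6.47%. The T-box motif GGTGTG, found in 16.3% of windows, and the STAT motif TTCNNNGAA, found in 7.02%, did not occur in the Gzmb or the Prf1 window, which says only that these letters are not there. Of the 10 members, 9 held the RUNX letters, but 5 of the 9 are the close relatives Gzmc to Gzmg, which share sequence. Gzmm has 2 RefSeq starts and was counted although the letters occurred upstream of only 1 of them, beginning 247 bases before it. That start was the one aligned. Aligned end to end, the Gzmb window had 47.8% identity with that of Prf1.

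**Figure D2:**
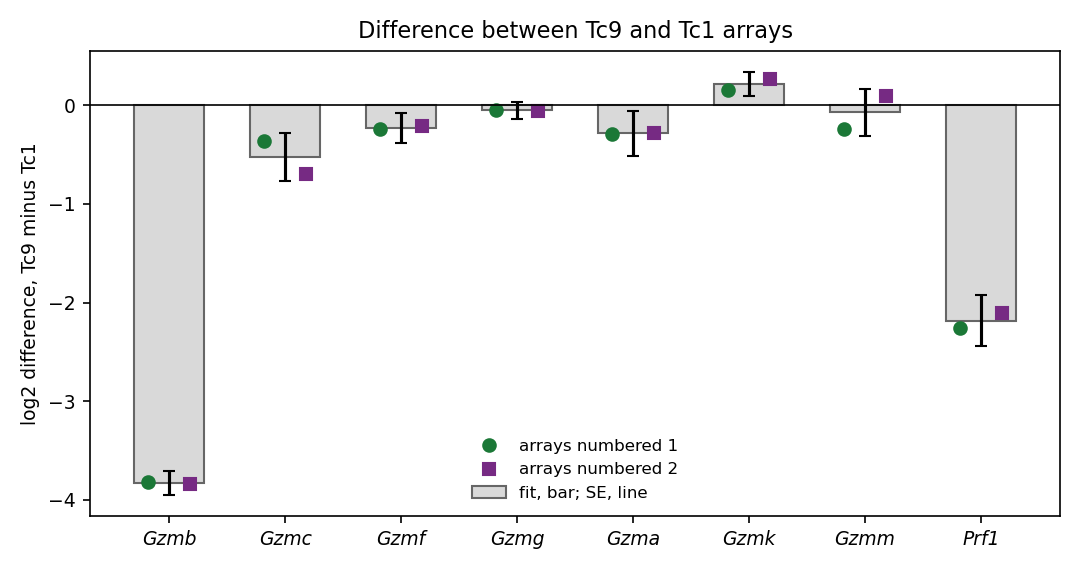
Log2 difference, Tc9 minus Tc1, of each measured member: grey bars are the fitted value over 2 arrays per group, black lines its SE, green circles the difference within the arrays numbered 1 and purple squares that within those numbered 2. Gzmb (-3.83) and Prf1 (-2.18) lie far below 0 in both numbered sets, and the other 6 lie between -0.53 and 0.22.

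Gzmc, Gzmf and Gzmg are mouse genes of the duplicated Gzmb locus whose enzymes are less well known. Gzmc measured 19.1 and 39.8 in Tc1 and 11.3 and 18.6 in Tc9. Its Tc9 arrays lay below its Tc1 arrays by a narrow margin, since the higher Tc9 value was 18.6 and the lower Tc1 value 19.1. The log2 difference was -0.53 ± 0.24 (SE, limma adjusted p = 1.00), with -0.36 and -0.69 within the numbers 1 and 2. With the replicate number as a block the same difference passed (limma adjusted p = 0.000305), although every value was below background. The block fit has fewer residual degrees of freedom, so a pass there does not show that a call holds. Gzmf measured 19.3 and 24.4 in Tc1 and 13.9 and 18.9 in Tc9 (-0.23 ± 0.15), so the groups were separate but close. Gzmg, at 11.3 and 10.8 in Tc1 and 10.5 and 9.69 in Tc9 (-0.05 ± 0.09), was the dimmest in both groups.

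Gzmb, Gzmc, Gzmf and Gzmg sit in the same cluster on chromosome 14, and a stretch near the start of the relatives is shown because it is nearly the same among them; capitals mark the 8 bases that align with the CRE motif TGACGTCA of Gzmc (GRCm38.p6, minus strand).
Gzmc, chr14:56234671-56234730: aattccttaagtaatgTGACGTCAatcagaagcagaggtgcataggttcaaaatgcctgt
Gzmf, chr14:56211446-56211505: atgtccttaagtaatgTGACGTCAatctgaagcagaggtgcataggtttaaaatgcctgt
Gzmg, chr14:56159613-56159672: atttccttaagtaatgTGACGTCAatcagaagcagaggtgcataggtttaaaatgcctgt
Gzmd, chr14:56132611-56132670: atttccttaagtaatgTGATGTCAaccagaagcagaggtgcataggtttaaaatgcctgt
Gzme, chr14:56120644-56120703: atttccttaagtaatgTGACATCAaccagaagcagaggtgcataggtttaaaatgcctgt
The full CRE letters occurred in Gzmc, Gzmf and Gzmg and in 1.55% of all promoter windows. Over the 250 upstream bases, the 10 pairs among Gzmc to Gzmg had 70.2% to 94.8% identity. Gzmb had 43.8% to 48.0% with them, a range equal to that of Prf1 with the 9 granzyme genes. Genes this alike can share signal between probes, and the probe sequences were not used here.

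Gzma and Gzmk, both on chromosome 13, encode the tryptase-like granzymes. Gzma measured 73.2 and 67.8 in Tc1 and 57.1 and 52.9 in Tc9, separate groups with a log2 difference of -0.29 ± 0.23 (SE; -0.29 and -0.28 within the numbers 1 and 2). Gzmk was the only member with a positive difference, 0.22 ± 0.12, from 15.0 and 11.4 in Tc1 to 18.7 and 17.1 in Tc9 (0.16 and 0.27 within the numbers). Gzmm, the gene of the methionine-preferring granzyme, measured 29.6 and 36.6 in Tc1 and 22.7 and 40.1 in Tc9. Its groups overlapped, and its difference of -0.07 ± 0.24 split into -0.24 and 0.09. All 3 were below background on every array, with limma adjusted p = 1.00 for each.

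**Figure D3:**
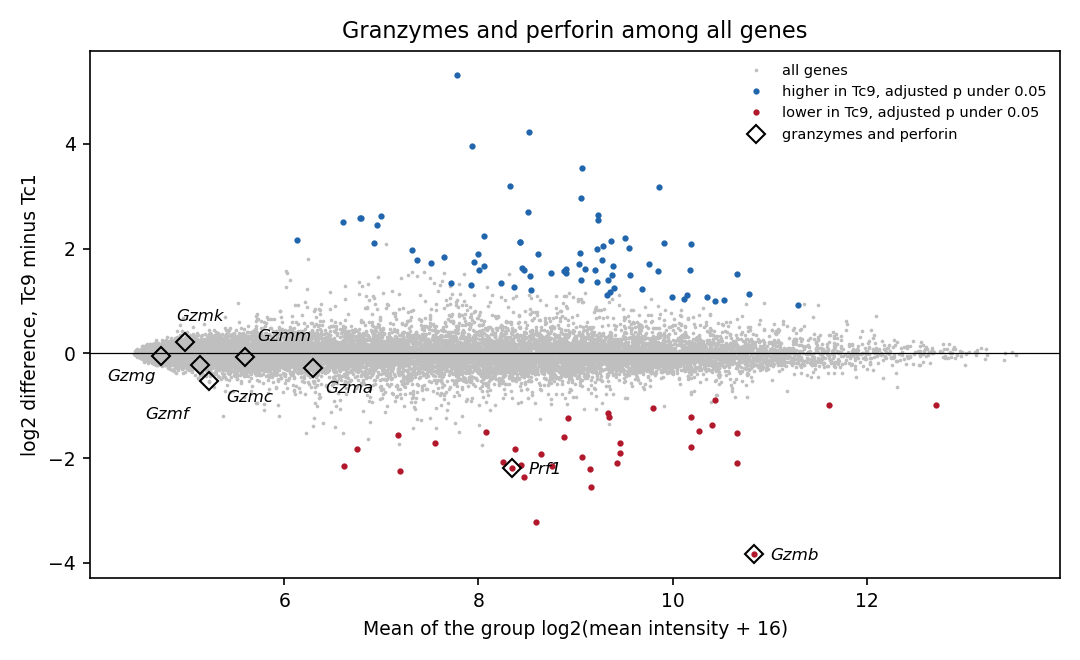
Log2 difference, Tc9 minus Tc1, against the mean of the 2 group log2(mean intensity + 16) values for all 19505 genes (grey), with the 75 genes higher (blue) and 35 lower (red) by limma and the 8 measured members as diamonds. Gzmb has the most negative difference of all genes, Prf1 lies among the other falls, and the 6 dim members lie at the left among genes past no threshold.

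The transcription factors that act on granzyme and perforin genes were mixed, with the T-box factors lower. Of 18 measured regulators (21 listed), 2 fell and 1 rose by limma adjusted p, and 3 were lower and 7 higher at an unadjusted p under 0.05. Of the 18, 3 lay below background on all 4 arrays, and the 7 include such a gene. Over all genes the adjusted shares were 0.179% lower and 0.385% higher, and the unadjusted shares 2.34% and 2.94%. The median difference of the list was 0.145, beside -0.0027 over all genes. Eomes, a T-box factor of effector and memory CD8 cells, measured 1051 and 1050 in Tc1 and 249 and 258 in Tc9 (log2 difference -1.98 ± 0.15, SE, adjusted p = 0.00381). Tbx21, encoding T-bet, the T-box factor of type 1 cells, measured 685 and 534 in Tc1 and 182 and 138 in Tc9 (-1.83 ± 0.22, adjusted p = 0.0167), with 1 Tc9 array below background. Neither factor's groups overlapped. Id2, an inhibitor of E proteins that is high in effector cells, rose from 428 and 411 to 958 and 887 (1.11 ± 0.15, adjusted p = 0.0275). Runx3, a factor of CD8 identity and killing, had overlapping groups at 791 and 1390 in Tc1 and 1041 and 1687 in Tc9 (0.33 ± 0.31). Stat4, which carries the interleukin 12 signal, and Foxo1, a factor of quiescent cells, missed the threshold at -1.06 (limma adjusted p = 0.124) and 1.12 (0.0525). Stat5a and Stat5b also missed it, both higher in Tc9, at 0.95 (0.0617) and 0.89 (0.0572). Runx3, Stat4, Foxo1, Stat5a and Stat5b were named after their values were seen. Without normalization Eomes, Tbx21 and Id2 all lost their calls (each at a limma adjusted p of 1). Tbx21 (0.0602) and Id2 (0.0738) also lost theirs without the intensity trend, and Id2 with median centring (0.235). The count of regulators that rose became 4 without Tc1-1, 3 without Tc1-2, 4 without Tc9-1 and 4 without Tc9-2, again with the spread of the remaining pair alone.

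Among the genes that process, store and release granule contents, Serpinb9 alone passed the test. Of 19 measured granule partners (20 listed), 1 fell and 0 rose by limma adjusted p; at an unadjusted p under 0.05, 2 were lower and 1 higher. The adjusted shares of all genes were 0.179% and 0.385%, and the unadjusted 2.34% and 2.94%. The list median was 0.08, beside -0.0027 over all genes. Serpinb9, the inhibitor that protects killer cells from their own granzyme B, measured 1178 and 1335 in Tc1 and 373 and 370.4 in Tc9, groups well apart (log2 difference -1.71 ± 0.15, SE, adjusted p = 0.00516). Its call was lost without normalization (a limma adjusted p of 1) and with median centring (0.0558), and the count of partners that fell became 2 without Tc9-2. Ctsc, the peptidase that activates granzymes by trimming them, measured 2612 and 2252 in Tc1 and 3404 and 2636 in Tc9 (0.30 ± 0.16, adjusted p = 1.00). Srgn, the serglycin core that holds granzymes in the granule, measured 8606 and 9183 in Tc1 and 9462 and 9712 in Tc9 (0.11 ± 0.10). Neither passed the test; both were named after their values were seen.

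Among 7 measured genes of other killing routes, 1 fell and 0 rose by limma adjusted p, and 4 were lower and 2 higher at an unadjusted p under 0.05, with a list median of -0.49 beside -0.0027 over all genes. Among all genes, 0.179% fell and 0.385% rose, with 2.34% lower and 2.94% higher unadjusted. Ifng, encoding interferon gamma, fell from 4699 and 4077 to 2330 and 2104 (log2 difference -0.98 ± 0.13, SE, adjusted p = 0.0251). Its groups did not overlap and it stayed above background on all 4 arrays. The call was lost without normalization (a limma adjusted p of 1) and without the intensity trend (0.134). Fasl, a death ligand that kills without granules, measured 114 and 104 in Tc1 and 47.5 and 53.9 in Tc9, below background throughout. It did not pass (log2 difference -0.91, limma adjusted p = 0.323). Tnfsf10, another death ligand, went the other way, at 287 and 282 in Tc1 and 433 and 501 in Tc9, above background on every array. Its log2 difference of 0.68 did not pass (limma adjusted p = 0.283). Fasl and Tnfsf10 were named after their values were seen.

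Of 14 measured genes whose proteins granzymes cleave in a target cell (17 listed), 0 passed limma adjusted p in either direction. At an unadjusted p under 0.05, 1 was lower and 0 higher, and the list median was 0.0076. Over all genes the adjusted shares were 0.179% lower and 0.385% higher, the unadjusted 2.34% and 2.94%, and the median -0.0027. The arrays hold RNA of the cultured T cells, so substrate levels in target cells were not measured. Among 9 granule protease genes of the Gzmb locus and its relatives (Gzmn, Ctsg, and the mast cell protease genes), 0 passed limma and 0 had an unadjusted p under 0.05. Set against the same shares of all genes, 0 adjusted calls in a list of 9 or 14 is no result about its members. All 9 were below background on every array, with differences from -0.16 to 0.24. Gzmn, a further granzyme gene of the locus named after its values were seen, measured 50.6 and 36.2 in Tc1 and 65.3 and 43.2 in Tc9, overlapping groups.

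**Figure D4:**
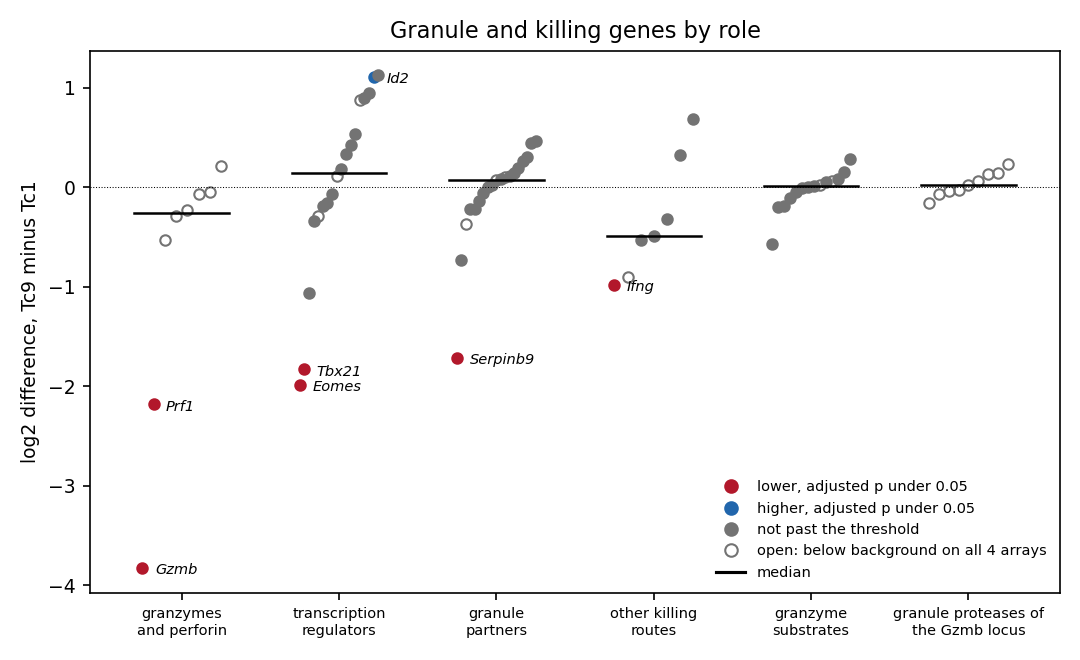
Log2 difference, Tc9 minus Tc1, of single genes in the granzyme and perforin set and in 5 lists by role (red, fell; blue, rose; grey, past no threshold; open symbols, below background on all 4 arrays; black lines, medians). Gzmb (-3.83) lies lowest; in the other lists Eomes (-1.98), Tbx21 (-1.83), Serpinb9 (-1.71) and Ifng (-0.98) fell and Id2 (1.11) rose.

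The genes whose profile over the 4 arrays was most like that of Gzmb or Prf1 were found by the distance between log2(intensity + 16) profiles, each centred on its own mean, among the 7326 genes above background on at least 2 arrays. For Gzmb they were Il12rb2, a chain of the interleukin 12 receptor, at a distance of 0.99, Ccl9, a chemokine gene, at 1.28, and Ly6c2, a surface protein of effector cells, at 1.52. Il12rb2, Ly6c2 and Ms4a4c were above background only on the Tc1 arrays, and entered through these, so their likeness in Tc9 is read from signal not above background. Il12rb2 measured 825 and 1515 in Tc1 and 77.5 and 142 in Tc9, further apart between replicates than Gzmb, and was at least 6.45-fold lower in Tc9. For Prf1 the nearest were Ly6c2 at 0.25, Ms4a4c, a membrane protein gene, at 0.30, and Tbx21 at 0.39. Ly6c2 measured 914 and 671 in Tc1 and 154 and 127 in Tc9, at least 4.54-fold lower. Prf1 itself was below background on both Tc9 arrays. The distance also counts the size of the fall, and Gzmb had the most negative difference of all genes. Its nearest genes fell less, with log2 differences of -3.22 (Il12rb2), -2.56 (Ccl9) and -2.36 (Ly6c2). With 4 arrays in 2 conditions, this likeness describes these arrays only. Shared regulation of these genes was not tested.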

How the data were processed

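The authors deposited a table of 1 linear intensity per probe set for 4 arrays. Background correction, summarization and software were not stated in the labels; the scale was read from the values, all positive. Of 28846 probe sets, 6640 controls were left out of normalization and tests. Of the other 22206, 19572 were named for a gene and 2634 were unnamed here. The probe set with the highest mean stood for a gene with several. Intensities were quantile normalized, 16 was added, log2 was taken, and all 19505 genes were fitted with limma 3.58.1 in R 4.3.3 (lmFit, eBayes with an intensity trend), with Benjamini-Hochberg adjustment. Residual degrees of freedom were 2 and prior degrees 5.09. The script was tested on simulated data. Arrays have no read depth; their number limits the precision. An exact permutation of 2 against 2 arrays cannot go below p = 0.333 and was not used. Promoter sequences are RefSeq's (GRCm38.p6), matched by symbol for 10 of 10 members and aligned with Biopython 1.88.

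The members and lists were chosen with earlier results of these data known. Genes named are the members, the genes past the threshold in the 5 lists, Cd8a, Cd8b1, Cd3e, Cd4, Il9, Ifng and the 3 nearest profiles of Gzmb and of Prf1. Others (Runx3, Stat4, Foxo1, Stat5a, Stat5b, Ctsc, Srgn, Fasl, Tnfsf10, Gzmn, Cd79b) were named after their values were seen. Samples were grouped by title. Alternatives changed normalization, pseudocount, filter, variance model, block, probe sets and arrays used.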

Additional observations from a re-analysis of the deposited data

How the results depend on the processing

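The fall of Gzmb kept its direction and call under all 14 alternatives, with log2 differences from -3.91 to -3.70. A pass with the replicate block or without 1 array does not show that the call holds. Prf1 stayed negative, from -2.48 to -1.88, and lost its call under 2. The number of members lower in Tc9, 2 at the reported setting, became 1 with the values as deposited and 1 without the intensity trend; it was 3 with the replicate block, when Gzmc was added. It was 2 without any 1 array, but in those fits the spread comes from the group that keeps 2 arrays, so they do not show that the calls hold. For the 6 dim members, the filter on background gave no value. Gzmm ranged from -0.34 (without Tc9-2) to 0.20 (without Tc9-1), turning positive also without Tc1-2 (0.03), and Cd8a from -0.24 (without Tc9-1) to 0.093 (without Tc9-2), positive also without Tc1-1 (0.03).

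Over all genes, the reported setting gave 75 higher and 35 lower. Without normalization there were 13 and 3, median centring gave 30 and 22, and leaving out the intensity trend gave 37 and 19. Without any 1 array they ranged from 120 to 167 higher and 55 to 124 lower. Of the 67 measured genes in the 5 lists together, 1 was higher and 4 lower, where 0.385% of all genes were higher and 0.179% lower. Without normalization the lists gave 0 and 0, median centring gave 0 and 3, and no trend 0 and 2. The higher count was 2 with controls in the normalization, 2 with a pseudocount of 1, 3 with the filter on background, and 3 to 4 without any 1 array. The cause of these moves was not tested.

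With the replicate block, 1236 of 19505 genes were higher and 1438 lower, and 17 and 14 of the 67 measured genes in the 5 lists. The block fit has fewer residual degrees of freedom than the 2 of the reported setting. Its limma adjusted p for Prf1 was 3.47e-80, which 4 arrays cannot bear out, so its p-values and counts are not relied on. Deviations from group means of arrays sharing a number correlated with r = 0.73 over genes; the labels do not say that a number pairs samples, so the block was not the reported setting. Signal over background limits 6 of the 8 measured members in both groups, and Prf1 in Tc9.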
